A study of Danio rerio with 2 samples.

Results

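A set of 9 genes of neutrophils and other myeloid cells were followed in RNA from whole zebrafish embryos: the neutrophil effector genes npsn, lyz and mpx, the leukocyte gene lcp1, and the transcription factor genes spi1, spi1l, cebpa, cebpb and cebp1. They were picked by exact match of the gene name among the 34728 loci of the authors' deposited expression table. Each of the 9 names matched 1 locus. The series holds 1 wild-type sibling library and 1 library of supt16h-/- embryos, both made from whole embryos grown at 28 °C and collected at 32 hours post fertilisation. It was made to find the mutated gene by linkage, and supt16h encodes a subunit of FACT, a histone chaperone. The number of embryos pooled in each library, the parent strain and whether the siblings included heterozygous carriers are not given in the sources used here. With 1 library per genotype there was no replicate, so no difference below has a check against variation between embryos and no p-value was computed here.

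In zebrafish embryos the first myeloid cells arise from the anterior lateral mesoderm and from the posterior blood island, and they spread through the body as macrophages and neutrophils while red cells fill the circulation. The Ets factor Pu.1, product of spi1, directs early blood progenitors to the myeloid fate, and factors of the C/EBP family drive the granulocyte programme. Maturing neutrophils fill their granules with enzymes such as myeloperoxidase, lysozyme and the protease nephrosin.

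The neutrophil genes npsn and lyz stood lower in the mutant library, cebpa and cebpb stood higher, and the other 5 genes differed little. Expression is given in FPKM, fragments per kilobase of transcript, scaled to library size, as the authors deposited it. A locus with a mean of at least 1 FPKM over both libraries is called measured, and 20638 loci, the 9 genes among them, met that limit. A difference means log2(mutant FPKM + 1) minus log2(sibling FPKM + 1), on which the change of a low gene looks smaller than it is. On it, 2 of the 9 genes stood lower by at least 2-fold in the mutant, as did 8.36% of all measured genes, and 1 stood higher by at least 2-fold, as did 6.75% of all measured genes. The median difference of the 9 genes was -0.03, beside 0.0012 over all measured genes. None of the 9 was called in the authors' deposited table, which calls 0.469% of its tested loci in either direction.

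**Figure D1:**
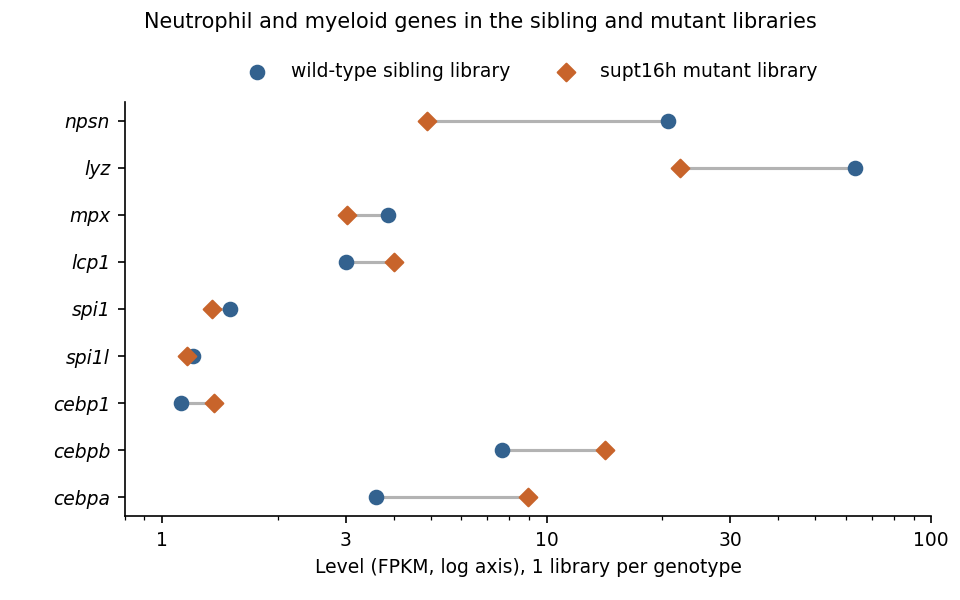
Level of each of the 9 genes in FPKM on a log axis, with 1 point for the wild-type sibling library and 1 for the supt16h mutant library joined by a line. The mutant points of npsn (4.89 FPKM) and lyz (22.2 FPKM) lie left of the sibling points (20.6 and 63.3 FPKM), those of cebpa and cebpb lie right of them, and the other 5 pairs lie close together.

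Several facts of the libraries bear on these values. The supt16h gene itself was at 44.4 FPKM in siblings and at 2.98 FPKM in mutants, lower in the library labelled mutant. The most frequent ratio between the libraries among 4528 loci of low FPKM, shared by 4.42% of them, would place the mutant library at 1.53 times the sibling one in depth. This is a rough estimate, and absolute depths could not be read. Dividing the authors' log2 change by its test statistic gave an implied standard error. It ran from 0.60 to 0.96 over the 7 genes of status OK, beside a median of 0.74 over all loci of that status. The genes spi1l and cebp1 have the status NOTEST and so no usable standard error.

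Among the effector genes, npsn encodes nephrosin, an astacin-like metalloprotease of neutrophils. Its level was 20.6 FPKM in siblings and 4.89 FPKM in mutants, which is 4.22-fold lower, a difference of -1.88. Of all measured genes, 2.07% had a lower difference than npsn. The authors' deposited table gives npsn a log2 change of -2.08 with an implied standard error of 0.69, at q = 0.208. In the Zv9 build the locus spans 40045582 to 40051579 of chromosome 7. Its neighbours on either side are c6ast3 and c6ast1, related astacin genes listed at 0 in both libraries. Another of them, c6ast4, was at 0 and 0.238 FPKM in sibling and mutant. The more distant astacin genes he1a and he1b, the hatching enzymes of the hatching gland, differed the other way, with 44.3 and 191 FPKM for he1a and 18.6 and 89.6 FPKM for he1b. Those hatching genes share 1 set of coordinates, so the division of reads between them is uncertain. Their relative he2 was at 0.229 and 1.37 FPKM. Of the 7 astacin-like genes looked up, 3 were measured, with 1 at least 2-fold lower and 2 at least 2-fold higher and a median of 2.08. Over all 7 loci the median was 0.31.

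The lysozyme gene lyz, whose enzyme cleaves bacterial cell walls, was the most abundant of the 9 genes in both libraries. It stood at 63.3 FPKM in siblings and at 22.2 FPKM in mutants, 2.85-fold lower, a difference of -1.47. Of all measured genes, 3.74% had a lower difference. In the authors' deposited table its log2 change is -1.51 with an implied standard error of 0.61, at q = 0.450. The locus lies on chromosome 24 from 24643810 to 24646748. The genes next to it, chodl (6.95 and 6.06 FPKM) and abcc13 (2.92 and 2.31 FPKM), showed much smaller differences of -0.17 and -0.24.

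The peroxidase gene mpx, which encodes the myeloperoxidase of neutrophil granules, did not show a difference of that size. It was at 3.88 FPKM in siblings and at 3.02 FPKM in mutants, a difference of -0.28, and 32.6% of measured genes had a lower one. In the authors' deposited table its log2 change is -0.36 with an implied standard error of 0.80, so the change lies within its own error. The locus lies on chromosome 10 from 6807369 to 6814445. Within the sibling library npsn stood at 5.32 times and lyz at 16.3 times the level of mpx. In the mutant library these ratios were 1.62 and 7.35. No test of the difference between these genes was possible with 1 library per genotype.

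The gene lcp1 encodes L-plastin, an actin-bundling protein made by both macrophages and neutrophils. Its level was 3 FPKM in siblings and 4.01 FPKM in mutants, a difference of 0.33. The authors' deposited table gives lcp1 a log2 change of 0.42 with an implied standard error of 0.74. The ratio of lyz to lcp1 was 21.1 in the sibling library and 5.53 in the mutant library, and that of npsn to lcp1 was 6.87 and 1.22. The locus lies on chromosome 9 from 57977605 to 57985364. A separate locus named LCP1 in capitals, on an unplaced scaffold, was at 0.783 and 1.08 FPKM, and how reads were divided between the copies is uncertain. Other plastin genes, looked up afterwards, were at 1.53 and 2.52 FPKM for pls1, and at 43.3 and 43.2 FPKM and 169 and 267 FPKM for the 2 loci named pls3. Of these 5 plastin loci 4 were measured, with 0 at least 2-fold lower or higher and a median of 0.40.

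Of the transcription factor genes, the pair that encodes Pu.1 and its duplicate was nearly level between the libraries. The gene spi1, now named spi1b in RefSeq, was at 1.5 FPKM in siblings and at 1.35 FPKM in mutants, a difference of -0.09. The gene spi1l, now spi1a, was at 1.2 and 1.16 FPKM, a difference of -0.03. Both levels are close to the limit for measured genes, and spi1 has the widest implied standard error of the 7 genes that have one in the authors' deposited table, 0.96. The table lists si:ch73-314g15.3 at the same coordinates as spi1, on chromosome 7 from 33964183 to 33993855, with 1.38 and 1.27 FPKM, so the division of reads between them is uncertain. The spi1l locus lies on chromosome 25 from 36640986 to 36659668.

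The genes of the CCAAT/enhancer-binding proteins stood higher in the mutant library, by unequal amounts. The gene cebpa, whose factor is needed for granulocytes and is also active in liver, was at 3.6 FPKM in siblings and at 8.95 FPKM in mutants, 2.48-fold higher, a difference of 1.11. Of all measured genes, 5.62% had a higher difference. The authors' deposited table gives cebpa a log2 change of 1.31 with an implied standard error of 0.62, at q = 0.664. The gene cebpb, whose factor acts in inflammatory and emergency blood formation, was at 7.64 and 14.2 FPKM, 1.85-fold higher in the mutant, a difference of 0.81. The authors' deposited table gives it a log2 change of 0.89 with an implied standard error of 0.60, at q = 0.999967. The gene cebp1 encodes a myeloid C/EBP factor described in zebrafish. Its level was 1.12 FPKM in siblings and 1.37 FPKM in mutants, a difference of 0.16.

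The positions of these 3 genes and the levels of their neighbours were also looked up. A link between neighbours was not tested. The cebpa locus lies on chromosome 7 from 39477839 to 39479965, and its neighbour cebpg, another gene of the family, begins 1.81 kb beyond it and was at 24.7 and 31.3 FPKM. The cebpb locus lies on chromosome 8 from 29301376 to 29302892. The gene tmem189, 3.75 kb beyond it, was at 9.41 and 18.8 FPKM, a difference of 0.93 beside the 0.81 of cebpb. The table lists cebp1 on chromosome 24 from 42240612 to 42601830, coordinates that it also gives to 13 other loci, among them the slow muscle myosin genes smyhc1 and smyhc2 at 222 and 383 FPKM. The value of cebp1 is therefore uncertain. A further gene of the family, cebpd, was at 7.23 and 13.3 FPKM, a difference of 0.80. All 5 C/EBP genes looked up stood above 0, with a median of 0.80, and 1 of them, cebpa, was at least 2-fold higher. This family was grouped after its values were seen, and 3 of its 5 genes are among the 9.

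**Figure D2:**
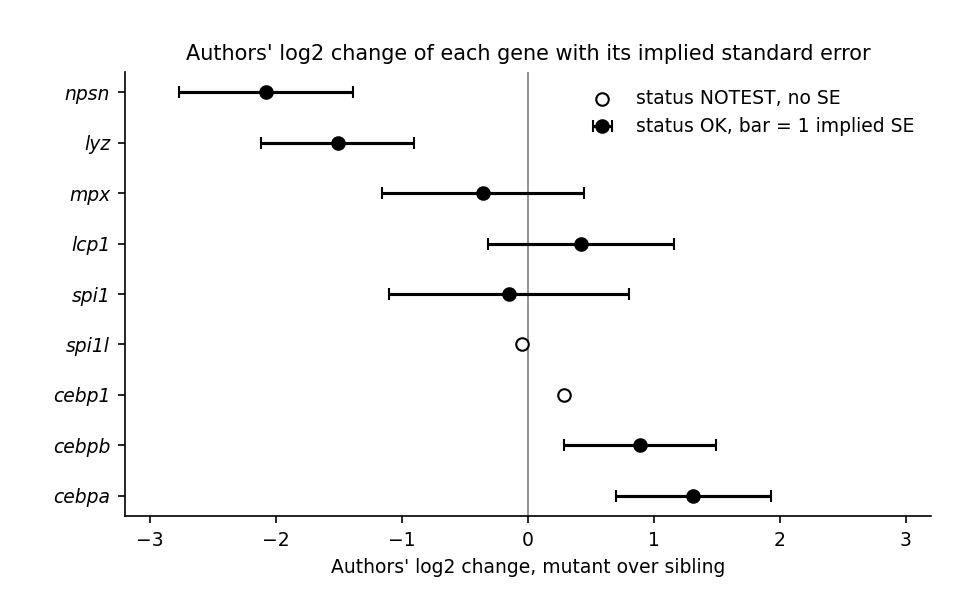
Log2 change of each of the 9 genes, mutant over sibling, from the authors' deposited table, with bars of 1 implied standard error. Bars of npsn, lyz, cebpa and cebpb do not reach 0, those of mpx, lcp1 and spi1 do, and spi1l and cebp1 have no bar because their status is NOTEST. A bar that misses 0 is not a called change, and none of the 9 genes was called in that table. With 1 library per genotype the bars rest on no replicate.

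The order of the 9 genes by level differed between the libraries. FPKM is scaled by transcript length, so levels of different genes can be set side by side. In the sibling library the order from the top was lyz, npsn, cebpb, mpx, cebpa, lcp1, spi1, spi1l and cebp1. In the mutant library it was lyz, cebpb, cebpa, npsn, lcp1, mpx, cebp1, spi1 and spi1l. The summed level of the 9 genes was 106 FPKM in siblings and 61.1 FPKM in mutants. Without npsn and lyz the sum was 21.9 and 34 FPKM, so the lower sum rests on those genes. With no replicate, no spread is known by which neighbours in either order could be told apart.

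The size of a difference depends on the level at which it is seen, so each gene was also placed among measured genes of like mean level, in bins of about 2064 genes. Of the 9 genes, 8 lay between the 5th and the 95th percentile of their bin and 1 lay outside. By construction 5% of the genes of each bin lie below the 5th percentile and as many above the 95th, so 1 of 9 is near the share of all genes. The gene outside was npsn, at -1.88 where the percentiles were -1.41 and 1.43. The difference of lyz, -1.47, lay above the lower percentile of its bin, which was -1.58. The difference of cebpa, 1.11, lay below the upper percentile of its bin, 1.32.

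**Figure D3:**
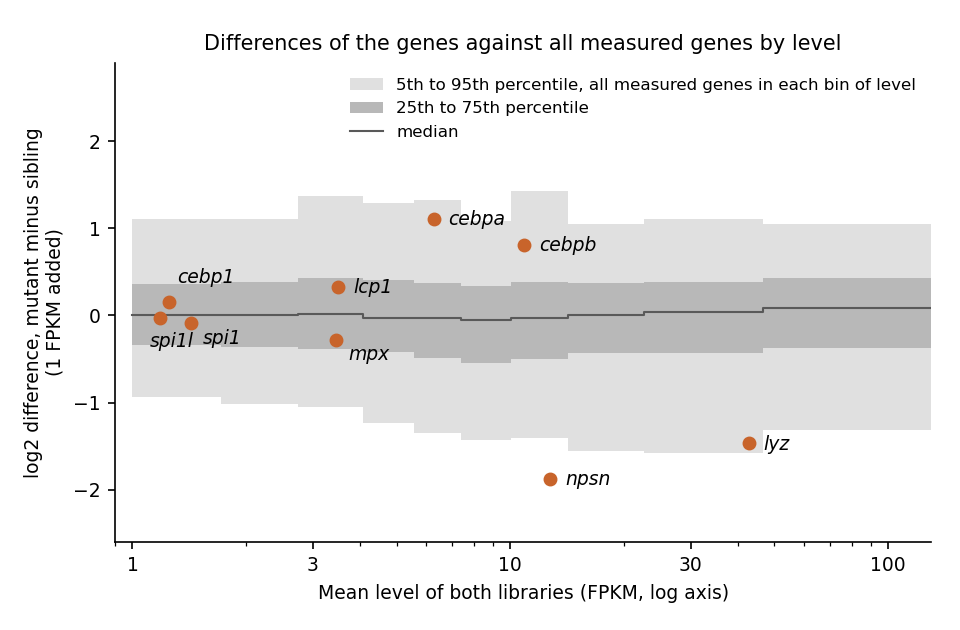
Difference of each of the 9 genes (vertical axis, log2 with 1 FPKM added, mutant minus sibling) against its mean level in FPKM on a log axis. Shaded steps show the spread of all measured genes in each bin of level. The point of npsn lies below the outer band, lyz lies near its lower edge, and cebpa and cebpb lie in its upper part.

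The list of neutrophil granule and effector genes held 19 loci, and 15 were measured, 2 of them at least 2-fold lower in the mutant and 1 at least 2-fold higher, with a median of 0.11. That median was -0.67 with a mean of at least 5 FPKM and -0.09 with no filter. The lower ones were npsn and lyz themselves. Without npsn, lyz and mpx, 12 genes were measured, with 0 at least 2-fold lower, 1 at least 2-fold higher and a median of 0.25. For the 3 of them with a mean of at least 5 FPKM the median was 0.71, and for all 16 with no filter 0.17. Those 3 were nccrp1, lta4h and srgn, with differences of 0.96, 0.71 and -0.67, so that median is the value of lta4h. Of the 4 loci below the limit, cpa5 (0.993 and 0.0922 FPKM), ncf4 (0.923 and 0.679 FPKM) and illr4 (0.215 and 0 FPKM) stood lower. The other, alox5ap, stood higher (0.2 and 0.398 FPKM). The deposited values of cpa5 alone give a 10.8-fold lower level in the mutant library. The gene at least 2-fold higher was cyba, a subunit of the phagocyte oxidase that also works in other cells, at 1.34 and 4.19 FPKM. The gene nccrp1, named for a receptor of cytotoxic cells, was at 17.3 and 34.5 FPKM. Among genes that mark neutrophils in zebrafish, the granule proteoglycan gene srgn (6.42 and 3.66 FPKM) and lect2l (2.47 and 1.4 FPKM) were lower, neither reaching 2-fold on this scale. The collagenase gene mmp13a (0.856 and 1.62 FPKM), the gelatinase gene mmp9 (1.98 and 2.59 FPKM) and the oxidase gene ncf1 (0.867 and 1.97 FPKM) stood higher by less than 2-fold with 1 FPKM added, and the deposited values of ncf1 alone give a ratio of 2.28. With 0.1 FPKM or nothing added, 2 genes of the list were at least 2-fold higher. The 6 markers chosen to define neutrophils, npsn, lyz, mpx, lect2l, mmp13a and nccrp1, were all measured and summed to 108 FPKM in siblings and to 67.6 FPKM in mutants. Without npsn and lyz the other 4 summed to 24.5 and 40.5 FPKM, so the lower sum rests on npsn and lyz. The higher sum of the other 4 rests on nccrp1, at 17.3 and 34.5 FPKM. Of the rest, mpx (3.88 and 3.02 FPKM) and lect2l stood lower in the mutant library and mmp13a stood higher.

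The list of myeloid transcription factors held 15 loci, of which 10 were measured. Of these, 1 was at least 2-fold lower and 1, cebpa, at least 2-fold higher, with a median of 0.23. The median was 0.12 with 5 FPKM added and 0.56 with a mean of at least 5 FPKM. The lower gene was cmyb, which RefSeq names myb, a factor of blood progenitors that dividing neural cells also express. It was at 14.2 FPKM in siblings and at 3.7 FPKM in mutants, a difference of -1.69, with q = 0.307 in the authors' deposited table. The genes irf8, runx1, gfi1aa, gfi1ab and gfi1b were below the limit for measured genes in these whole embryos.

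Most measured genes of leukocyte cytoskeleton and signalling stood slightly higher in the mutant library, none of them by 2-fold. Of 16 loci found for 22 names, 7 were measured, with 6 above 0 and 1 below. Among them 0 were at least 2-fold lower or higher, and the median was 0.33, or 0.17 with 5 FPKM added. In which cells of the whole embryos these genes were expressed is not known. The GTPase gene rac2 (28.8 and 38.1 FPKM), hcls1 (5.54 and 7.59 FPKM) and cotl1 (134 and 175 FPKM) stood slightly higher, and the kinase gene hck (4.64 and 3.08 FPKM) slightly lower. The leukocyte gene coro1a was at 5.94 and 6.57 FPKM, and the common leukocyte antigen gene ptprc was below the limit at 0.243 and 0.671 FPKM. The 3 markers chosen for leukocytes in general, which include lcp1, summed to 9.18 FPKM in siblings and to 11.3 FPKM in mutants.

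Among ligands and receptors of myeloid growth and migration, 11 of 17 loci were measured, with 1 at least 2-fold lower, 0 at least 2-fold higher and a median of -0.42. With a mean of at least 5 FPKM that median was 0.02 and 0 genes were at least 2-fold lower. With no filter it was 0, and 1 gene was at least 2-fold higher. That gene was il1b, below the limit for measured genes at 0.264 and 1.62 FPKM. The lower gene was csf1b, a ligand of the macrophage growth factor receptor, at 4.29 FPKM in siblings and 0.468 FPKM in mutants, with q = 0.110 in the authors' deposited table. The other ligand csf1a (3.11 and 1.69 FPKM) and the receptor csf1ra, which pigment cells also carry (1.63 and 0.701 FPKM), were lower, and neither reached 2-fold on this scale. The chemokine receptor cxcr4b, which holds neutrophils at their site of origin and also guides many other cells, was at 12.7 and 6.34 FPKM. Its ligand cxcl12a was at 15.1 and 11 FPKM. The cytokine signalling genes il6st (4.44 and 7.91 FPKM) and jak2a (8.56 and 14.2 FPKM) stood higher. The granulocyte growth factor receptor csf3r was below the limit at 0.15 and 0.246 FPKM.

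Macrophage and microglia markers showed no common direction. Of 19 loci, 10 were measured, with 0 at least 2-fold lower and 2 at least 2-fold higher and a median of 0.17. The higher ones were apoeb (98 and 362 FPKM), an apolipoprotein gene that the yolk syncytial layer also expresses, and the cathepsin gene ctssb.1 (2.44 and 8.87 FPKM). The amino acid transporter gene slc7a7 was at 1.33 and 3.21 FPKM. Of the defining macrophage markers, mpeg1 was at 0.81 and 0.712 FPKM, marco at 0.132 and 0.956 FPKM and csf1ra at 1.63 and 0.701 FPKM. The marker mfap4, at a locus shared with a second name, was at 6.06 and 7.06 FPKM. The 4 defining macrophage markers summed to 8.64 FPKM in siblings and to 9.43 FPKM in mutants. No defining neutrophil or macrophage marker was at 0 in either library.

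**Figure D4:**
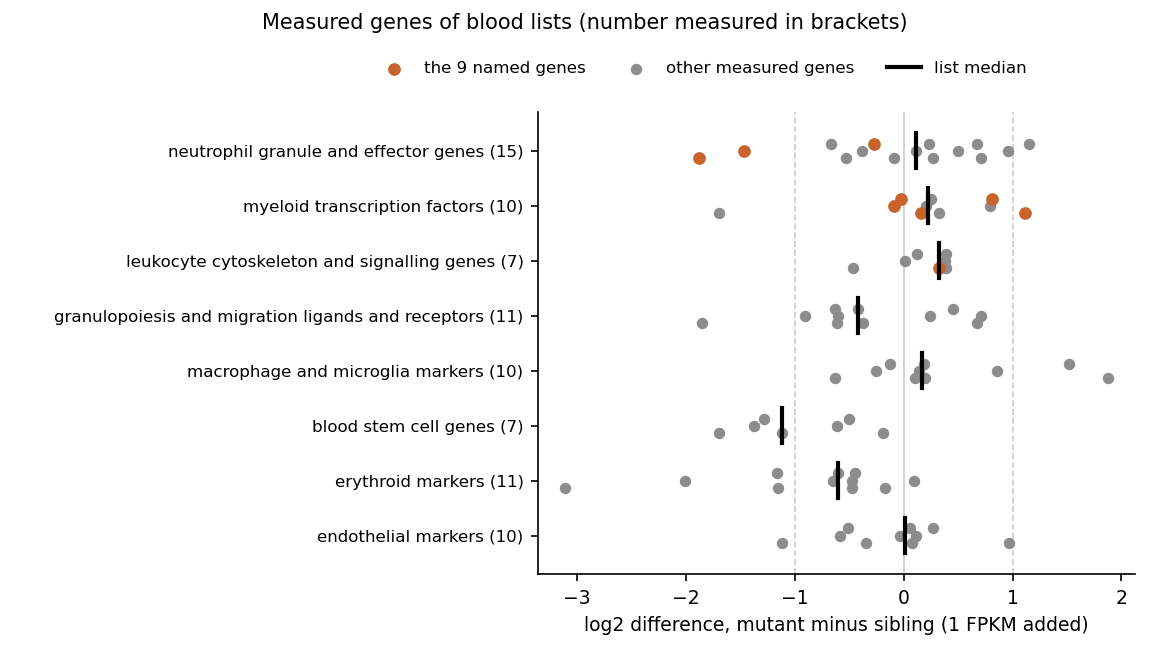
Differences of measured genes (log2 with 1 FPKM added, mutant minus sibling) in 8 lists of blood and vessel genes, with the list median as a bar and dashed lines at 2-fold. The points of npsn and lyz stand apart on the left of the neutrophil list, whose median is 0.11, and the stem cell list has the lowest median, -1.11.

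Markers of other cell types also differed between the libraries, and their part in the values above was not tested. Since whole embryos were measured, fewer cells of a type and less RNA per cell cannot be told apart. In the erythroid list 11 of 12 loci were measured, with 4 at least 2-fold lower, 0 at least 2-fold higher and a median of -0.60. Of the 11, 10 were below 0 and 1 was above, the globin gene hbbe3 (780 and 833 FPKM). The globin loci, the most abundant of the list, had differences from -0.65 to 0.09, none of them reaching 2-fold. With 5 FPKM added 2 were at least 2-fold lower. The list included slc4a1a, called in the authors' deposited table with q = 0.0291, which fell from 46.9 to 4.56 FPKM, and cahz (28.5 and 6.32 FPKM), epb41b (2.45 and 0.543 FPKM) and the haem synthesis gene alas2 (15.4 and 6.4 FPKM), none of which was called. The defining erythroid markers, which do not include hbbe3, summed to 6135 FPKM in siblings and to 4437 FPKM in mutants. In the list of blood stem cell genes all 7 measured genes of 9 loci were below 0, with 4 at least 2-fold lower and a median of -1.11. Over all 9 loci the median was -0.61, and with 5 FPKM added 2 genes were at least 2-fold lower, with a median of -0.77. The 4 genes were cmyb, gata2a (11.3 and 3.73 FPKM), meis1 (75 and 30.3 FPKM) and fli1a (12.4 and 5.2 FPKM), all of which have roles outside blood. The endothelial list, all 10 loci measured, had a median of 0.02, with fli1a at least 2-fold lower and 0 genes at least 2-fold higher. With 0.1 FPKM or nothing added, 2 were at least 2-fold lower and 1 at least 2-fold higher. With 5 FPKM added, 0 were at least 2-fold lower or higher. In this list tie2 was at 12.6 and 25.6 FPKM, flt1 at 1.5 and 0.667 FPKM and kdrl at 5.17 and 3.33 FPKM. The 3 defining endothelial markers summed to 10.4 and 8.07 FPKM. Of 6 thrombocyte loci, 3 were measured, with nfe2, also an erythroid factor, at 37.9 and 17.6 FPKM, fgg, also in the liver list below, at 0.75 and 5.55 FPKM, gp1bb at 3.12 and 2.18 FPKM and a median of -0.37. Of these, 1 was at least 2-fold lower and 1 at least 2-fold higher. The defining thrombocyte markers itga2b and mpl were at 0 in the sibling library, and itga2b also in the mutant library. None of the 7 lymphoid loci was measured, and lck was listed at 0 in the sibling library.

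Lists of liver and yolk, epidermal and hatching gland genes were also looked at. In which tissues cebpa and cebpb were expressed here is not known, and a link between these lists and those genes was not tested. In the liver and yolk list, drawn up after values were seen, all 12 measured of 16 loci stood higher in the mutant library, 10 of them at least 2-fold, with a median of 2.31 and 4 called in the authors' deposited table. The 4 called were apoa2 (54.5 to 586 FPKM, q = 0.000584), apoa1a (287 to 2448 FPKM), apoc2 (16.4 to 117 FPKM) and tfa (7.23 to 65.8 FPKM). The inhibitor gene serpina1 was at 5.21 and 42.2 FPKM. The summed level of that list was 394 FPKM in siblings and 3347 FPKM in mutants, while the hepatocyte gene fabp10a was listed at 0 in both. In the epidermal list, also drawn up afterwards, 12 of 13 measured genes stood higher, 3 at least 2-fold, with a median of 0.54 and summed levels of 15039 and 21736 FPKM. Under equal totals of FPKM, 1 was at least 2-fold higher. The 3 were annexin genes, with anxa1a at 132 and 279 FPKM, anxa1b at 42.3 and 88 FPKM and anxa1c at 243 and 535 FPKM, and the gene that stood lower was agr2 (40.3 and 24.9 FPKM). The hatching gland list, which holds he1a and he1b, had 3 of 4 genes at least 2-fold higher and a median of 2.02, with ctsl1b at 8.69 and 36.4 FPKM and cd63 at 60.8 and 66.3 FPKM. Its 3 defining markers summed to 71.5 FPKM in siblings and to 317 FPKM in mutants.

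Of the 9 genes, 3 share chromosome 7 with supt16h, the gene that the series was made to find. They are spi1, 32.2 Mb beyond supt16h in the Zv9 build, and cebpa and npsn, which lie 566 kb from each other. The mutant levels of cebpa and npsn differed from the sibling levels in opposite directions. The authors' deposited variant table lists 7514 sites annotated to 4224 genes, beside 34728 loci in the expression table. Of the 9 members only lcp1 had a listed site, and it had 3. No site was annotated to npsn, cebpa, spi1 or the other members. At the low coverage of these sites, the lack of a listed site does not show that a gene lacks variants. Inside the coordinates given for cebp1, which 13 other loci share, 28 sites were listed, none of them annotated to cebp1. The 3 sites of lcp1 lie on chromosome 9 at 57982813, 57983049 and 57983923, in exons of transcripts annotated as processed or with a retained intron. Their coverage was 2, 5 and 9 reads, beside a median of 4 over all sites. Which library these reads came from is not given in the sources used here.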

How the data were processed

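RNA of 2 libraries was compared. Cuffdiff, Cufflinks 2.2.1, TopHat2 2.1.1, CASAVA 1.8 and genome build Zv9 appear in the submitters' processing notes, with no role or option given. Per the file headers, the authors deposited 1 FPKM value per locus and library, with their own Cuffdiff log2 ratio, statistic, p-value and q-value for 1 library against 1. Among loci of status OK with a statistic below 100 in absolute size, the p-value was compared with the 2-sided normal tail of the statistic. At 100% of these loci the 2 were equal within 0.001. Per the file headers, SnpEff 3.1k made the variant annotation. That table holds a quality score (10 to 227) and a coverage, the count of reads, as the authors deposited them.

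Loci needed a mean of at least 1 FPKM and a status other than FAIL and HIDATA. FPKM were not rescaled. Relative depth was read from 4528 loci below 1 FPKM in both libraries, as the most frequent log2 ratio in bins of 0.02. The neutrophil list without the members was added after seeing the data. Samples were grouped by their titles. Python 3.11.15, numpy 2.4.6, pandas 2.3.3 and scipy 1.17.1 were used, and the counting was tested on simulated data.

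The members and lists were chosen with earlier results of these data known. Named were the 9 members, in each list the 4 measured genes with the largest difference and any gene called by the authors, and defining markers. Genes named beyond that rule, among them srgn, lect2l, mmp13a, mmp9, ncf1, coro1a, ptprc, csf1a, cxcl12a, csf3r, the neighbours and the liver and yolk, epidermal, astacin, C/EBP and plastin lists, were chosen after their values were seen. The genes hbbe3, il1b, cpa5, ncf4, illr4 and alox5ap were also named after their values were seen. Names were matched directly or through RefSeq synonyms.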

Additional observations from a re-analysis of the deposited data

How the results depend on the processing

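For the 7 genes with an implied standard error, 8 alternatives gave 53 values, which all moved by less than that error. The 12 values of spi1l and cebp1, which have none, moved by at most 0.13. Alternatives that change only the filter or the status limit cannot move the value of a gene. The rescalings, the larger of which is a shift of -0.09, can move it little. For those settings the outcome was therefore nearly fixed in advance, and only the added constant could move a value further. Each of the 9 genes kept the sign of its difference wherever it had a value. An added constant or a filter cannot change a sign, so only the small rescalings could have done so. The difference of npsn ran from -2.08 to -1.37, that of lyz from -1.56 to -1.33, that of cebpa from 0.70 to 1.31 and that of cebpb from 0.60 to 0.89. With 5 FPKM added, 0 members were at least 2-fold higher, since cebpa then differed by 0.70. With a mean of at least 5 FPKM only 4 members were left, and their median was -0.33. The percent of all measured genes at least 2-fold lower and higher was 11.1 and 9.46 with 0.1 FPKM added, 3.86 and 2.99 with 5 FPKM added, 5.15 and 4.45 with no filter, 9.88 and 6.31 with a mean of at least 5 FPKM and 9.51 and 5.90 with equal FPKM totals. With nothing added, which like the limit to loci of status OK was chosen after seeing the data, it was 11.1 and 8.67. That setting covers only the 20225 measured loci above 0 in both libraries. Equal totals shift all differences of well expressed genes by -0.09. Of 240 list counts, 25 changed by over 1.5 times, and of 120 list medians, 34 moved by over 0.1. No paired analysis was possible because each group has 1 library. The lowest genes, spi1, spi1l and cebp1, are limited by depth, which is known only as a rough ratio.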
